A study of Mus musculus with 4 samples.

Results

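The let-7 and miR-98 guide strands of the mouse cortex were examined, that is, the 9 mature 5p arms let-7a-5p, let-7b-5p, let-7c-5p, let-7d-5p, let-7e-5p, let-7f-5p, let-7g-5p, let-7i-5p and miR-98-5p. They were picked by name among the 942 mature miRNAs of the count table, by a rule that uses no measured value. Small RNA was sequenced from the brain cortex of 4 B6C3 mice kept for 9 months in an SPF facility, with 1 library per mouse. WT1 and WT2 were wild type, and APP3 and APP4, called AD mice below, carried the APPswe/PS1deltaE9 transgenes, that is, a part-human APP with the Swedish mutation and human presenilin 1 without exon 9. Both transgenes were driven in neurons. All 4 mice were anesthetized with pentobarbital before dissection, and the labels name no other treatment. According to the methods of the study the mice formed 2 sibling pairs, APP4 with WT1 (group 1) and APP3 with WT2 (group 2), with 1 WT and 1 AD mouse in each. The cortex was taken whole, and the libraries mix neurons, glia, vessels and blood.

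let-7 miRNAs are an old and strongly conserved family, first found in the nematode, where they time the passage from larval to adult cells. In mammals they accumulate as cells differentiate, they are abundant in the mature brain, and they repress growth and stem cell genes such as Hmga2, Lin28, Myc and Ras through sites that pair with the seed, bases 2 to 8 of the guide. The LIN28 proteins in turn block the maturation of many let-7 precursors by binding the loop of the hairpin.

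The 9 mature sequences are shown because they explain why the guides are treated as one family and how few bases tell their reads apart. They were taken from RefSeq for GRCm38.p6, all 9 names were matched, and capitals mark the seed.
let-7a-5p: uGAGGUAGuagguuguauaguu
let-7b-5p: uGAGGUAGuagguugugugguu
let-7c-5p: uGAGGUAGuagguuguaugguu
let-7d-5p: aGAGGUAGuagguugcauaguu
let-7e-5p: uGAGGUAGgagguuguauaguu
let-7f-5p: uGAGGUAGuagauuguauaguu
let-7g-5p: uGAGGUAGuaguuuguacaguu
let-7i-5p: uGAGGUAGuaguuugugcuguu
miR-98-5p: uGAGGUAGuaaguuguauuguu
All 9 guides have 22 bases and share the seed GAGGUAG, and 14 of the 22 positions are the same in all of them. Counted from 1 at the 5′ end, with the base of let-7a-5p first, let-7c-5p differs from let-7a-5p by A19G, let-7e-5p by U9G and let-7f-5p by G12A. let-7b-5p differs by A17G and A19G, let-7d-5p by U1A and U16C, let-7g-5p by G12U and U18C, and miR-98-5p by G11A and A19U. let-7i-5p stands farthest from let-7a-5p, with G12U, A17G, U18C and A19U. Of the 36 pairs of guides, 4 were 1 base apart (let-7a-5p with let-7c-5p, let-7e-5p and let-7f-5p, and let-7b-5p with let-7c-5p) and 14 were at most 2 bases apart. The methods of the study allow up to 2 mismatches in the matching of reads and elsewhere state that none was allowed for miRBase, and how reads that fit several guides were shared is not given in the sources used here. Every guide has another within 2 bases, so the split of reads is uncertain for all 9, and 5 of them have one that is 1 base away. The sum of the family does not depend on how reads were split among the 9.

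The guides come from 12 hairpins at 8 places of the genome (GRCm38, RefSeq and GENCODE). On chromosome 13, let-7a-1 (chr13:48538179-48538272), let-7f-1 (chr13:48537829-48537917) and let-7d (chr13:48536012-48536114) lie on the minus strand in exons of the long non-coding RNA 6720427I07Rik. On chromosome 15, let-7c-2 (chr15:85706603-85706697) and let-7b (chr15:85707319-85707403) lie on the plus strand in exons of the non-coding transcript Lncppara. On chromosome X, let-7f-2 (chrX:151912346-151912428) and miR-98 (chrX:151913214-151913321) lie on the plus strand in introns of Huwe1, which encodes a ubiquitin ligase. let-7g (chr9:106178840-106178927, plus strand) lies in an intron of Wdr82, and let-7i (chr10:122985640-122985724, minus strand) in an exon of the pseudogene transcript D630033A02Rik. The other 3 hairpins share a host gene with miRNAs of the miR-99/100 and miR-125 families: let-7a-2 (chr9:41536716-41536811) in an intron of the non-coding 3110039I08Rik, let-7c-1 (chr16:77599657-77599750) in an intron of the non-coding Mir99ahg and let-7e (chr17:17830352-17830444) in an intron of Spaca6, all on the plus strand. The guides of let-7a, let-7c and let-7f each come from 2 hairpins, and their counts cannot be assigned to either. The letters GGAG, which LIN28 proteins are known to bind in let-7 loops, were found on the hairpin strand outside the guide in 9 of the 12 hairpins (75.0%), and were not found in let-7b, let-7c-2 and miR-98. Over all 1005 mouse hairpins of the RefSeq table, 39 to 147 bases long, 44.5% held the same letters, and the member hairpins were 83 to 108 bases long.

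The libraries held 19048747 (APP4) to 26085776 (WT1) miRNA reads, and levels are given as RPM, the reads of a miRNA per 1000000 of this sum, on which 3 reads amount to 0.115 to 0.157 RPM. All 5 cortex neuron markers were present, with a summed level of 78050 to 85393 RPM. The genotypes overlapped for miR-9-5p, miR-128-3p and miR-124-3p. miR-138-5p (1666 and 2447 RPM in WT, 3948 and 3174 RPM in AD mice) was higher in both AD mice. So was miR-132-3p (4618 and 4113 RPM in WT, 5358 and 5123 RPM in AD mice). Of the markers of other cells, the 8 epithelial and sensory miRNAs of the miR-200 and miR-182 clusters stood apart in APP4, with a summed 5862 RPM against 576 to 1024 RPM in the other libraries, and none of the 8 was at 0 in any library. The summed level of blood markers (3 of 5 names found) was 98.5 to 214 RPM, of oligodendrocyte markers (2 of 3) 1368 to 1742 RPM and of microglia markers (4 of 4) 1119 to 1307 RPM. miR-146a-5p dominated the microglia sum, and its genotypes overlapped (WT1 1149, WT2 1071, APP3 1023, APP4 1209 RPM). The remaining microglia markers were scarcer, and each had its AD levels above its WT levels in RPM. As a background for all markers, the genotypes were apart in RPM for 36.0% of the 623 miRNAs tested over the 4 mice. In the same library order, miR-142-5p had 54.7, 74.3, 88.4 and 90.9 RPM. miR-142-3p had 1.88, 1.45, 2.92 and 3.41 RPM, and miR-155-5p 3.95, 3.71, 4.56 and 4.62 RPM. Vessel markers (3 of 5) summed to 24863 and 25330 RPM in WT1 and WT2 and to 21765 and 17836 RPM in APP3 and APP4. Most of this sum was miR-143-3p, with 23902 and 24328 RPM in WT1 and WT2 and 20760 and 16628 RPM in APP3 and APP4. miR-145a-5p was also lower in both AD mice (164 and 152 RPM in WT, 112 and 150 RPM in AD mice). The other vessel marker, miR-126-3p, was higher in both (797 and 849 RPM in WT, 893 and 1058 RPM in AD mice). Choroid plexus markers (2 of 2) summed to 2926 RPM in APP4 and 3500 to 4387 RPM in the others. Most of this sum was miR-204-5p, with 3484 and 4370 RPM in WT1 and WT2 and 3472 and 2900.19 RPM in APP3 and APP4. The other choroid plexus marker, miR-211-5p, was higher in both AD mice (15.7 and 17.03 RPM in WT, 33.3 and 25.6 RPM in AD mice). Muscle markers (3 of 3) summed to 95.2 to 122 RPM and the liver marker miR-122-5p reached 0.940 to 4.45 RPM. The most abundant miRNA, miR-127-3p, took 14.1% of the reads of APP4 and 17.3 to 19.1% of those of the others.

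The 9 guides together took 9.26 and 8.11% of all reads in the WT mice WT1 and WT2 (Wilson 95% intervals 9.25 to 9.27 and 8.10 to 8.12), and 7.90 and 10.6% in the AD mice APP3 and APP4 (7.89 to 7.92 and 10.60 to 10.63). The AD mice held both the highest and the lowest share, with the WT mice between them. The mean was 8.69% ± 0.812 (SD, n = 2) in WT and 9.26% ± 1.92 (SD, n = 2) in AD mice. The intervals cover counting error only, and reads amplified by PCR are not independent molecules. On the log2 scale the summed level was 0.08 higher in AD than in WT mice (exact two-sided permutation test, p = 1, where the smallest p the 4 mice allow is 0.333), while APP4 was 0.43 above APP3 and WT2 0.19 below WT1. With TMM sizes the direction turned, at -0.06 between the genotypes and -0.06 in each sibling pair. The direction in RPM also turned without APP4, the library with the raised epithelial markers, where APP3 lay at -0.13 against the WT mean on the log2 scale. Whether what raised these markers in APP4 had a part in these values was not tested. In RNA of whole cortex a change in the number of cells of a type and a change in RNA per cell cannot be told apart.

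let-7f-5p was the most abundant guide, with 33855 and 28102 RPM in WT1 and WT2 and 29082 and 37668 RPM in APP3 and APP4. It was high in WT1 and APP4, and the genotypes overlapped. It ranked between 5 and 8 among all miRNAs of each library. let-7c-5p followed with 16407 and 14857 RPM in WT1 and WT2 and 13479 and 18886 RPM in APP3 and APP4. let-7a-5p, whose sequence is the reference for the substitutions above, had 13739 and 12226 RPM in WT1 and WT2 and 12203 and 15613 RPM in APP3 and APP4. APP4 was the highest and APP3 the lowest library for both of these guides, and the WT mice lay between. The 3 guides together made up 68 to 69.3% of the family reads.

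let-7i-5p, which has a locus of its own on chromosome 10, had 11466 and 8547 RPM in WT1 and WT2 and 8938 and 11404 RPM in APP3 and APP4. let-7g-5p, from Wdr82, had 7756 and 8097 RPM in WT1 and WT2 and 6812 and 10739 RPM in APP3 and APP4. These guides differed in which WT mouse was higher, WT1 for let-7i-5p and WT2 for let-7g-5p, and the genotypes overlapped for each. let-7e-5p had 3158 and 2939 RPM in WT1 and WT2 and 2862 and 3694 RPM in APP3 and APP4. let-7b-5p had 2744 and 2868 RPM in WT1 and WT2 and 2480 and 3545 RPM in APP3 and APP4. The last of the guides named let-7, let-7d-5p, had 2340 and 2594 RPM in WT1 and WT2 and 2272 and 3361 RPM in APP3 and APP4. For all 3, APP4 was the highest and APP3 the lowest library. miR-98-5p, the guide with its own number despite the shared seed, was the scarcest at 1142 and 894 RPM in WT1 and WT2 and 919 and 1227 RPM in APP3 and APP4, high in WT1 and APP4.

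**Figure D1:**
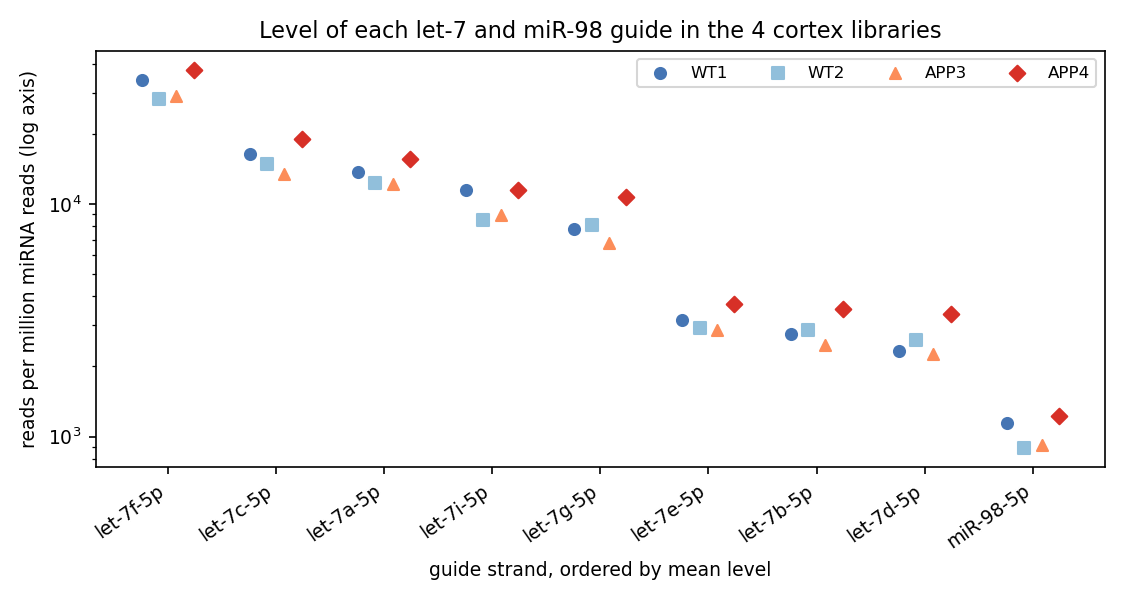
Level of each guide in RPM (vertical axis, log scale) in WT1, WT2, APP3 and APP4, with 1 point per library and the guides in order of their mean over the 4 libraries. The guides span 894 RPM (miR-98-5p in WT2) to 37668 RPM (let-7f-5p in APP4), and for every guide the AD points overlap the WT points.

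APP4 was the highest library for 8 of the 9 guides and APP3 the lowest for 6. The order of the guides was the same in all 4 libraries, since each was above the next in 4 of 4. Neighbours whose ranges over the 4 libraries did not overlap were let-7f-5p over let-7c-5p (1.89 to 2.16-fold within a library), let-7a-5p over let-7i-5p (1.20 to 1.43-fold), let-7g-5p over let-7e-5p (2.38 to 2.91-fold) and let-7d-5p over miR-98-5p (2.05 to 2.90-fold). The ranges overlapped for let-7c-5p and let-7a-5p (1.10 to 1.22-fold), let-7i-5p and let-7g-5p (1.06 to 1.48-fold), let-7e-5p and let-7b-5p (1.02 to 1.15-fold) and let-7b-5p and let-7d-5p (1.05 to 1.17-fold). All guides have the same length, and these are orders of reads that were not calibrated against known amounts. The coefficient of variation over the 4 libraries ran from 11.9% for let-7e-5p to 20.1% for let-7g-5p, with a median of 15.5% against 14.0% over the 252 miRNAs averaging 50 RPM or more.

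Taken as a share of the family reads, which does not depend on library size, the guides kept their order and moved little. let-7f-5p made up 36.6% and 34.6% of the family in WT1 and WT2 and 36.8% and 35.5% in APP3 and APP4. let-7g-5p made up 8.38% and 9.98% in WT1 and WT2 and 8.62% and 10.1% in APP3 and APP4. let-7i-5p made up 12.4% and 10.5% in WT1 and WT2 and 11.3% and 10.7% in APP3 and APP4. The share of let-7g-5p was thus high in WT2 and APP4, 1 mouse of each genotype and not siblings, and that of let-7i-5p was low in the same mice. These guides are 2 bases apart, and their split is among the uncertain ones. let-7b-5p and let-7d-5p followed let-7g-5p, and the 3 guides together made up 13.9% and 16.7% in WT1 and WT2 and 14.6% and 16.6% in APP3 and APP4, a grouping chosen after its values were seen. For none of the 9 shares did the genotypes keep apart, and each genotype difference (from -0.05 to 0.09 on the log2 scale) was smaller than the larger difference between mice of 1 genotype.

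**Figure D2:**
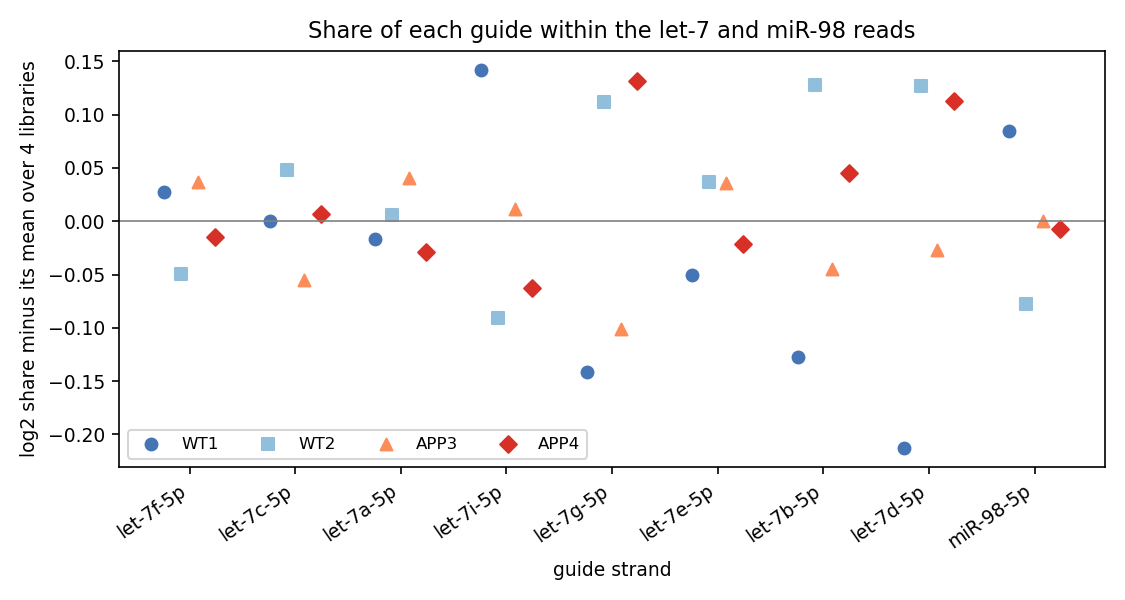
Log2 share of the family reads taken by each guide, minus its mean over the 4 libraries (vertical axis). WT1, WT2, APP3 and APP4 have 1 point each. let-7f-5p lies between -0.05 (WT2) and 0.04 (APP3). let-7g-5p is higher in WT2 and APP4 (0.11 and 0.13) than in WT1 and APP3 (-0.14 and -0.10).

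Guides of the same cluster kept their read ratio to different degrees. On chromosome X, let-7f-5p over miR-98-5p was 29.7 and 31.4 in WT1 and WT2 and 31.6 and 30.7 in APP3 and APP4, a spread of 1.07-fold, although let-7f-5p also comes from chromosome 13. On chromosome 15, let-7c-5p over let-7b-5p was 5.98 and 5.18 in WT1 and WT2 and 5.43 and 5.33 in APP3 and APP4. On chromosome 13, let-7f-5p over let-7d-5p was 14.5 and 10.8 in WT1 and WT2 and 12.8 and 11.2 in APP3 and APP4, a spread of 1.34-fold. No ratio kept the genotypes apart.

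In group 1 (APP4 against WT1), Fisher's exact test with an FDR under 0.05 and at least 1.5-fold called 0 of the 9 guides, against 11.6% of the 899 miRNAs tested. let-7d-5p had the largest difference, with a log2 (fold change) of 0.52 (counting SE 0.0082), and was 1.44-fold higher in APP4, just under the limit. let-7g-5p was higher by 0.47 on the log2 scale and let-7b-5p by 0.37. let-7e-5p, let-7c-5p, let-7a-5p and let-7f-5p differed by 0.23, 0.20, 0.18 and 0.15, and miR-98-5p by 0.10. let-7i-5p was the exception at -0.01 (FDR 0.118 by Fisher's exact test). The other 8 passed the FDR alone, as 40.3% of all miRNAs did, and 88.1% of those averaging 50 RPM or more. By direction, 30.8% of all miRNAs were higher and 9.45% lower in APP4. The median of the guides was 0.20, against 0.14 over the 252 miRNAs averaging 50 RPM or more. With library sizes corrected by TMM, which moved the median of these 252 miRNAs to -0.11, the median of the guides was -0.05, with 3 guides (let-7b-5p, let-7d-5p and let-7g-5p) higher and 6 lower in APP4. The sign of the difference in group 1 therefore depended on the scaling for let-7a-5p, let-7c-5p, let-7e-5p, let-7f-5p and miR-98-5p. All of these values rest on APP4, and the part of its raised epithelial and sensory markers in them was not tested.

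In group 2 (APP3 against WT2), 0 of the 9 guides were called, against 6.81% of the 896 miRNAs tested. let-7g-5p had the largest difference, with a log2 (fold change) of -0.25 (counting SE 0.0051). let-7b-5p followed with -0.21, let-7d-5p with -0.19 and let-7c-5p with -0.14. let-7e-5p was at -0.04 and let-7a-5p at -0.00 (FDR 0.682 by Fisher's exact test). let-7i-5p, let-7f-5p and miR-98-5p were at 0.06, 0.05 and 0.04. By the FDR alone 8 guides passed, 3 higher and 5 lower in APP3, while 36.0% of all miRNAs (20.8% higher and 15.3% lower) and 86.1% of those averaging 50 RPM or more did. The median was -0.04, against 0.04 over the 252 miRNAs. let-7g-5p, let-7b-5p and let-7d-5p, the guides with the largest positive differences in group 1, had the largest negative ones in group 2. Each group holds 1 library a side, so Fisher's test compares those libraries and not the genotypes, and its SE covers counting error only.

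**Figure D3:**
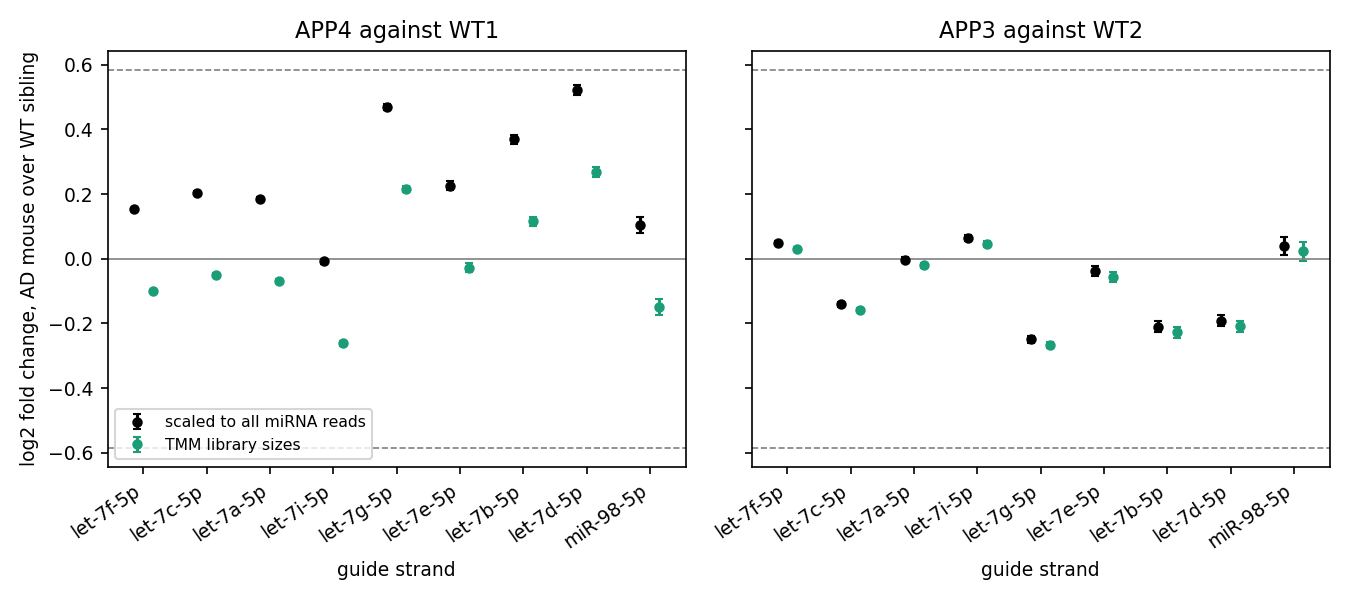
Log2 (fold change) of each guide in APP4 over WT1 and in APP3 over WT2 (vertical axis). Black points are scaled to all miRNA reads, and green points use TMM library sizes. Bars for the 95% counting interval are smaller than most points. The black values run from -0.01 (let-7i-5p) to 0.52 (let-7d-5p) in group 1 and from -0.25 (let-7g-5p) to 0.06 (let-7i-5p) in group 2. The green values run from -0.26 to 0.27 in group 1 and from -0.27 to 0.05 in group 2. All lie within the limit of 1.5-fold.

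Over the 4 mice, the quasi-likelihood test of edgeR, adjusted by the Benjamini-Hochberg method, called 0 of the 9 guides, and 0.00% of the 623 miRNAs tested. At an unadjusted p under 0.05 it passed 36 miRNAs, none of them a guide, and DESeq2 called 0 miRNAs and passed 28, again no guide. The estimates, made with TMM sizes, were below 0 for 8 of the 9 guides. With no normalization beyond the sum of counts, the scale of the RPM, all 9 were above 0 (0.02 to 0.19), again with none called. The median of the guides was -0.04 with TMM and 0.10 without. The median over the 623 miRNAs tested moved in the same way, from -0.02 with TMM to 0.11 without. With TMM the log2 (fold change) of AD over WT was -0.04 for let-7f-5p (SE 0.22, 95% interval -0.56 to 0.48, edgeR adjusted p = 0.995), -0.10 for let-7c-5p (SE 0.21, -0.60 to 0.40) and -0.05 for let-7a-5p (SE 0.20, -0.52 to 0.43). let-7i-5p had the lowest value at -0.13 (SE 0.23, -0.67 to 0.42, edgeR adjusted p = 0.972) and let-7d-5p the highest at 0.05 (SE 0.20, -0.44 to 0.53). The other guides lay between, with let-7g-5p at -0.00, let-7b-5p at -0.04, let-7e-5p at -0.04 and miR-98-5p at -0.07. All 9 intervals held 0, and the lowest edgeR adjusted p of the 9 was 0.972. The intervals of let-7c-5p, let-7i-5p and miR-98-5p reached past 1.5-fold lower, and no interval reached 1.5-fold higher. Without APP4, all 9 guides were lower in the remaining AD mouse, at -0.30 to -0.18. Without APP3, 8 were higher and 1 lower in the AD mouse left (-0.02 to 0.25). Without WT1, 8 were higher and 1 lower in AD mice (-0.03 to 0.17), and without WT2, 2 were higher and 7 lower (-0.33 to 0.11).

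**Figure D4:**
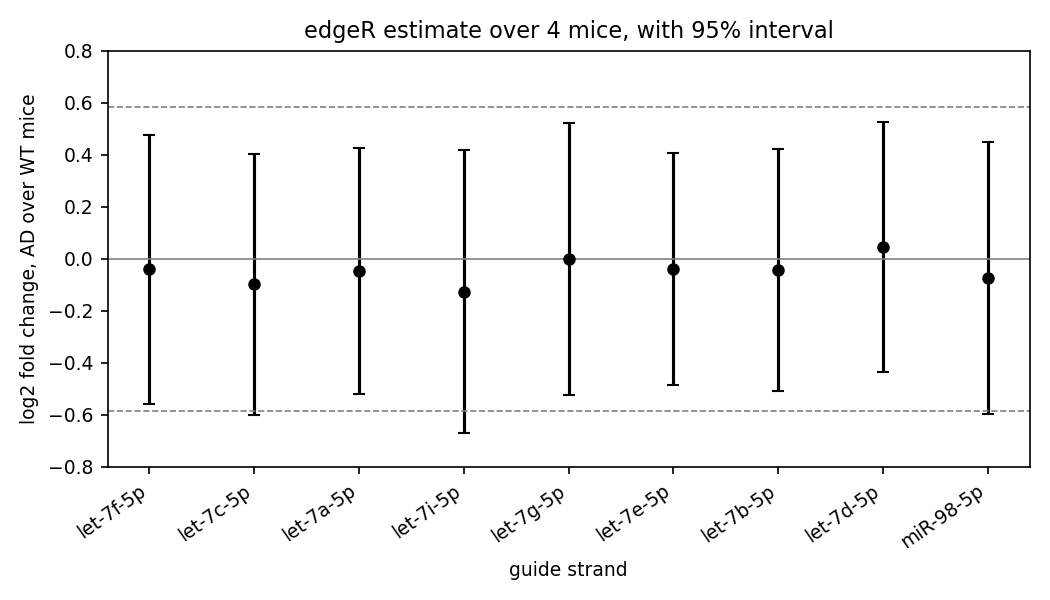
Log2 (fold change) of each guide in AD over WT mice by edgeR (points, vertical axis) with its 95% interval (bars), 2 mice per genotype. Dashed lines mark 1.5-fold in each direction; all intervals hold 0, and those of let-7c-5p, let-7i-5p and miR-98-5p pass the lower line.

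The genotypes were also set side by side as levels. In RPM the AD and WT ranges overlapped for all 9 guides, while they were apart for 36.0% of the 623 miRNAs tested and for 34.5% of those averaging 50 RPM or more. With TMM scaling the ranges again overlapped for all 9, and were apart for 34.0% of the 623. For all 9 guides the larger difference between mice of 1 genotype exceeded the difference between the genotypes in RPM. APP4 was above APP3 for every guide, by 0.35 (let-7i-5p) to 0.66 (let-7g-5p) on the log2 scale, while WT2 minus WT1 ran from -0.42 (let-7i-5p) to 0.15 (let-7d-5p).

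The miRNAs that share a host gene with let-7a-2, let-7c-1 and let-7e did not keep a fixed ratio to the guides. miR-100-5p had 2751 and 5861 RPM in WT1 and WT2 and 2211 and 1199 RPM in APP3 and APP4. The AD mice were below both WT mice, as they were for the vessel markers miR-143-3p and miR-145a-5p. For the vessel marker miR-126-3p they were above both WT mice. The part of vessels in the miR-100-5p levels was not tested. let-7a-5p reads were 4.99 and 2.09 times those of miR-100-5p in WT1 and WT2 and 5.52 and 13 times in APP3 and APP4. This was the only one of 6 such ratios in which the genotypes did not overlap, and on the log2 scale its genotype difference of 1.39 was little above the larger difference within a genotype, 1.26. Ranges apart between genotypes were found in 36.0% of the 623 miRNA levels tested. miR-99b-5p, whose hairpin ends 95 bases before that of let-7e, had 8632 and 18065 RPM in WT1 and WT2 and 9450.02 and 4986 RPM in APP3 and APP4. let-7e-5p, which has no other hairpin, was at 0.366 and 0.163 times miR-99b-5p in WT1 and WT2 and at 0.303 and 0.741 times in APP3 and APP4, and the genotypes overlapped. let-7c-5p over miR-99a-5p was 7.77 and 5.47 in WT1 and WT2 and 7.19 and 15.3 in APP3 and APP4. All 6 ratios, which include miR-125a-5p and miR-125b-5p, were higher in the AD mouse of both pairs, by 0.31 to 1.38 on the log2 scale in group 1 and by 0.39 to 1.40 in group 2.

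The partners and the guides were then set side by side within each group. In group 1 miR-100-5p was at -1.20, miR-99b-5p at -0.79 and miR-99a-5p at -0.77 on the log2 scale, and these 3 were called by Fisher's exact test, while miR-125b-5p at -0.14 and miR-125a-5p at -0.09 were not. With TMM sizes miR-125b-5p was at -0.40 and miR-125a-5p at -0.34 in group 1, against -0.03 to -0.07 for let-7e-5p, let-7c-5p and let-7a-5p, so whether guide or miR-125 partner differed more depended on the scaling. In group 2 miR-100-5p was at -1.41, miR-99b-5p at -0.93, miR-125b-5p at -0.62 and miR-125a-5p at -0.59, all called, and miR-99a-5p at -0.54 was not. Over the 4 mice no partner was called by edgeR (adjusted p = 0.768 for miR-100-5p), and with the sibling pair as a block only miR-100-5p was (edgeR adjusted p = 0.0166). let-7a-5p and let-7c-5p each have a second hairpin elsewhere, and miR-125b-5p has hairpins beside both let-7a-2 and let-7c-1, so these ratios mix transcripts.

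**Figure D5:**
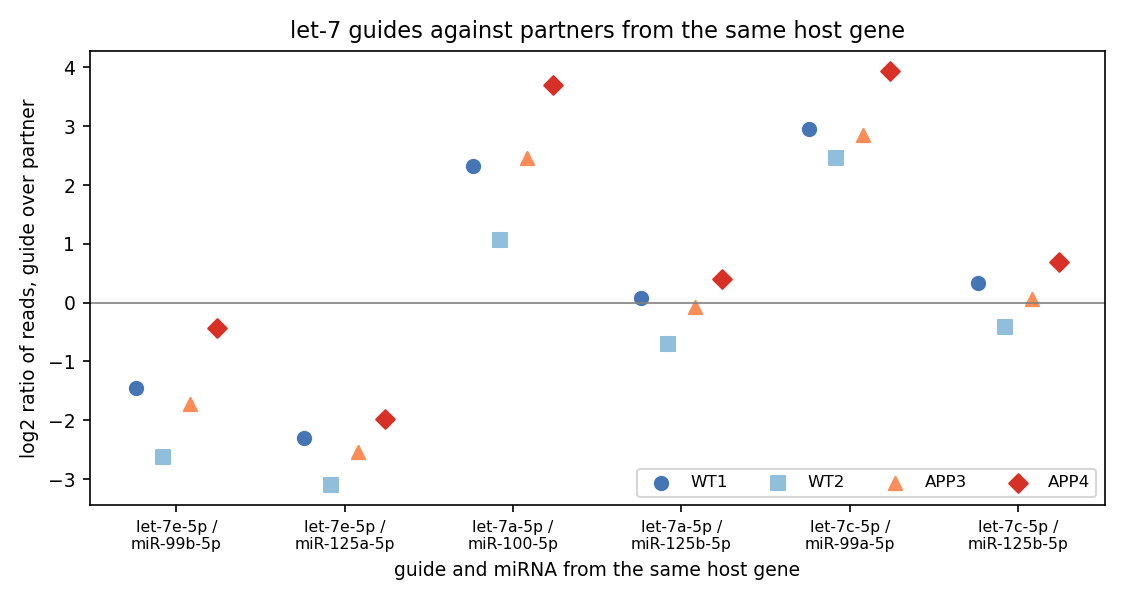
Log2 ratio of reads of a let-7 guide over a miRNA from the same host gene (vertical axis) for 6 combinations in WT1, WT2, APP3 and APP4, with 1 point per library. APP4 is the highest and WT2 the lowest library in each combination, and the genotypes are apart only for let-7a-5p over miR-100-5p.

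The opposite arms were scarce, with 12 rows of 3p arms that summed to 734 to 970 RPM. For guides other than let-7d-5p the 3p arm took 0.0556 to 1.79% of the reads of both arms. let-7d was the exception, with a 3p share of 20.7% and 17.7% in WT1 and WT2 and 25.0% and 16.4% in APP3 and APP4, again with overlapping genotypes. The 3p arms of let-7a-1 and let-7c-2 have the same sequence, and their counts were nearly equal in every library, with 408 and 403 reads in WT1 and 317 and 319 in APP4.

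Other rows of the table with the seed GAGGUAG were nearly empty. let-7k, of 19 bases, differs from let-7e-5p by A17G and A19G and had 131 and 122 reads in the WT mice and 81 and 118 reads in the AD mice, or 0.133 to 0.188% of the reads of let-7e-5p. miR-1961, of 17 bases, had at most 2 reads in any library. Only reads of 18 to 35 bases were kept, so its level cannot be judged from this count. These sequences are shown to set them against the guides.
let-7k: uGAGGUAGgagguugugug
miR-1961: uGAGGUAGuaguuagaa
let-7j: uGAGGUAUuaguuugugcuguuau
let-7j, named after its values were seen, differs from let-7i-5p by G8U, inside the seed, and by 2 more bases at its 3′ end. Its reads were 5886 and 2944 in WT1 and WT2 and 3005 and 3741 in APP3 and APP4, or 1.56 to 1.97% of those of let-7i-5p, and the WT1 value was the highest as it was for let-7i-5p.

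Among the 243 other miRNAs averaging 50 RPM or more, the pattern most like that of the summed family over the 4 libraries, by the root mean square distance of centred log2 RPM, was that of miR-320-3p (0.02), followed by miR-329-5p (0.04) and miR-340-5p (0.04). miR-320-3p had 279 and 253 RPM in WT1 and WT2 and 242 and 330 RPM in APP3 and APP4. Like the family it was highest in APP4 and lowest in APP3. By the same measure let-7a-5p was the nearest guide to the family sum (0.03) and let-7d-5p the farthest (0.14).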

How the data were processed

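The miRNA counts of 4 cortex libraries were analysed. According to the study's methods the authors trimmed adapters, kept reads of 18 to 35 bases, matched them to miRBase 19.0 and deposited the count of reads per mature miRNA without normalization. Beside the counts the authors deposited RPM of clean reads, under the name TPM, used here only to recover the number of clean reads. The submitters' processing notes name mm9 and CASAVA 1.8, while the methods name GRCm38; the files hold no coordinates, and positions and sequences come from RefSeq (GRCm38.p6) and GENCODE vM21.

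Counts were scaled to the sum of miRNA reads. Fisher's exact tests (two-sided, scipy 1.17.1, Benjamini-Hochberg FDR over miRNAs with a read in the pair, 0.5 read added to fold changes) compared the libraries of each pair, and edgeR 4.0.16 (filterByExpr, TMM, quasi-likelihood) the genotypes over the 4 mice. DESeq2 1.42.0 was an alternative. The alternatives were TMM sizes, clean reads, 1000000 scaled reads, at least 10 RPM, Bonferroni, no fold limit, 2-fold, 5 reads added, the sibling block, DESeq2, no TMM, no filter and leaving out each mouse. All 9 guides were named, with rows of the same seed, host gene partners, 3p arms and the 3 miRNAs most alike. The guides and lists were chosen with earlier results of these data known. The labels give no shared replicate numbers, and the sibling pairs come from the study's methods. Each library is 1 mouse.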

Additional observations from a re-analysis of the deposited data

Results flagged for a closer look

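For 7 of the 9 guides the log2 (fold change) had opposite signs in the sibling pairs. No test of this difference was made, since each pair holds 1 library a side. Group 1 minus group 2 was 0.72 for let-7g-5p, 0.71 for let-7d-5p, 0.58 for let-7b-5p, 0.34 for let-7c-5p, 0.26 for let-7e-5p, 0.19 for let-7a-5p and -0.072 for let-7i-5p. The count rests on signs. Both values passed the FDR by Fisher's exact test for 5 of the 7 (let-7b-5p, let-7c-5p, let-7d-5p, let-7e-5p and let-7g-5p, each higher in APP4 and lower in APP3), while let-7a-5p did not in group 2 (-0.00, FDR 0.682) nor let-7i-5p in group 1 (-0.01, FDR 0.118). Over the 252 miRNAs averaging 50 RPM or more, 45.6% had opposite signs, and 33.7% had them with both values past the FDR. With TMM sizes the signs were opposite for 4 of these 7, let-7b-5p, let-7d-5p, let-7g-5p and let-7i-5p. They became opposite for let-7f-5p (-0.10 in group 1, 0.03 in group 2) and miR-98-5p (-0.15 and 0.02). This made 6 of the 9 guides with TMM sizes, against 52.4% of the 252 miRNAs. Group 1 holds APP4, whose epithelial and sensory markers summed to 5862 RPM, and the part of this in the differences was not tested.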

How the results depend on the processing

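No guide was called between pairs or genotypes under any alternative run, except that without the fold limit 8 were called in each pair. With TMM sizes the group 1 values turned to -0.069 for let-7a-5p, -0.051 for let-7c-5p, -0.027 for let-7e-5p, -0.10 for let-7f-5p and -0.15 for miR-98-5p, and the summed family was at -0.057 in group 1, -0.055 in group 2 and -0.056 between genotypes. With clean reads the sum was -0.055 in group 2. Without normalization beyond the sum of counts, edgeR gave 0.10 for let-7a-5p, 0.10 for let-7b-5p, 0.050 for let-7c-5p, 0.10 for let-7e-5p, 0.11 for let-7f-5p, 0.15 for let-7g-5p, 0.024 for let-7i-5p and 0.077 for miR-98-5p. let-7g-5p also turned to 0.023 with DESeq2's size factors, 0.030 without a filter and 0.028 by DESeq2's test.

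Without each mouse in turn, 0 to 0 guides were called by edgeR, and the estimates ran from -0.18 to 0.088 for let-7a-5p, -0.26 to 0.14 for let-7b-5p, -0.30 to 0.067 for let-7c-5p, -0.20 to 0.25 for let-7d-5p, -0.18 to 0.073 for let-7e-5p, -0.18 to 0.15 for let-7f-5p, -0.30 to 0.24 for let-7g-5p, -0.33 to 0.15 for let-7i-5p and -0.25 to 0.17 for miR-98-5p. The lone mouse left in a genotype was assumed to vary like the others. The summed family ran from -0.13 (without APP4) to 0.29 (without APP3), and was -0.016 without WT2. The number of shares whose genotypes kept apart, 0 with all mice, was 7 without WT1, 6 without WT2, 2 without APP3 and 3 without APP4, as fewer samples allow. Among guides other than let-7f-5p, 1 share was apart, that of let-7c-5p, lower in both AD mice and named after its values were seen. In these results the cause was not tested. With the sibling pair as a block no guide was called and none changed direction, while 2 other miRNAs were called. Deviations of siblings from their genotype means had a correlation of 0.235 over 252 miRNAs. With 2 mice per genotype these deviations mirror each other, so both sibling pairs give the same value. It is a single contrast of the 4 libraries, and likeness of siblings was not tested. The pair comparisons have 1 library a side, so no mouse could be left out. Each guide had at least 894 RPM in every library, and each genotype has 2 mice. Depth was not varied.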
